A study of Mus musculus with 8 samples.

Results

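The Dach, Eya and Six-family genes encode proteins of the retinal determination network, and 9 of them were examined in embryonic mouse dorsal root ganglia (DRG). The set was chosen by name, as Dach1, its paralogue Dach2, and the Six-family and Eya genes Six2, Six4, Six5, Eya1, Eya2, Eya3 and Eya4. All 9 were found by Ensembl gene ID among the 55414 genes listed in the count files, and 8 of the 9 were among the 17721 genes with enough counts to be tested. Transcripts were counted by bulk RNA-seq in DRG of E18.5 embryos, with 4 libraries from AdvillinCre/+;Rosa26Dach1/+ embryos (AD1 OE, for Dach1 overexpression) and 4 from Advillin+/+;Rosa26Dach1/+ embryos (Control). Both groups carried 1 Rosa26 allele holding a Dach1 copy, joined to EGFP, behind a floxed stop cassette, and the AD1 OE embryos also carried a Cre recombinase in 1 Advillin allele. The cassette is therefore removed only where Advillin has been active, which is mainly in postmitotic sensory neurons, while the glia and connective tissue of the ganglion keep it. The study's methods place the Rosa26 line on a mixed C57Bl/6J and CD1 background. The comparison asked which transcripts differ once Dach1, which is normally restricted to some DRG neuron subtypes late in development, is present across the sensory neurons. Differences that come with Cre, EGFP or the altered Advillin allele cannot be told apart here from those that come with Dach1. For the 9 genes it gives their baseline levels in Control ganglia, and whether the partners of Dach1 differed in level in AD1 OE.

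In the network as known from the fly eye and from vertebrates, Six-family proteins bind DNA through a homeodomain, Eya proteins bind Six-family proteins as coactivators that are also phosphatases, and Dach proteins act in the nucleus mostly as corepressors related to Ski. Pax factors act upstream of the network in the eye. In vertebrates the same gene families are used well beyond the eye, in muscle, kidney, the inner ear and the cranial sensory placodes, and some of their members are known from sensory ganglia. The families regulate one another in several of these tissues, so a change in the level of 1 member is a usual occasion to examine the others.

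Total counts ran from 22339059 to 44025625 per library. The labels describe the cells as neurons and glia, and markers of both were high in every library. The summed level of 8 sensory neuron markers was 5183 to 5854 CPM in AD1 OE against 5493 to 5724 CPM in Control, where CPM is the count scaled to a common library size. The sum of 6 Schwann and satellite glia markers was 970 to 1224 CPM and 1015 to 1226 CPM. Markers of other tissue were also present. By edgeR, 0 genes of the 9 marker lists were called between the groups, against 2.57% of all tested genes. An unadjusted p under 0.05 was found for 3 neuron, 2 glia, 3 fibroblast and 1 cartilage markers. The share of all tested genes at that p is not given here. At an adjusted p under 0.05 these were Ntrk3, Pdgfra and Acan, with log2 fold changes (AD1 OE minus Control) of 0.3, 0.23 and -2.32. Over all tested genes, 6.55% had such an adjusted p. The sums of fibroblast markers were 4107 to 4547 CPM in AD1 OE against 3490 to 4204 CPM in Control, and those of skeletal muscle markers 100.02 to 490 CPM and 120.45 to 337 CPM. As judged from Xist and Y-linked transcripts, 3 of the 4 AD1 OE libraries came from males against 1 of the 4 Control libraries, so sex and genotype were partly mixed, and values within each sex are given where they bear on a member. In bulk tissue, fewer cells of a type and less RNA per cell cannot be told apart. The labels number the replicates without saying whether they are separate embryos, while the study gives its n for this comparison in embryos. The p-values set the difference between the groups against the spread between these libraries.

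Dach1 and Dach2 are paralogues, so the ability of reads to tell them apart bears on the values of both. The most similar ungapped window of their coding sequences is shown here because a read of the introduced Dach1 copy would there have the fewest bases that set it apart from Dach2. The window is 150 bases long and runs from coding base 631 to 780 of the Dach1 transcript ENSMUST00000071533 and from coding base 313 to 462 of the Dach2 transcript ENSMUST00000113382 (GENCODE M21), and capitals mark the bases that differ.
Dach1: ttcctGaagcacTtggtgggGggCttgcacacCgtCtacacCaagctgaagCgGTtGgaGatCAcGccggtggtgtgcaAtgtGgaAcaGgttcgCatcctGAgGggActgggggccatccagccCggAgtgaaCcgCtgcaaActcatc
Dach2: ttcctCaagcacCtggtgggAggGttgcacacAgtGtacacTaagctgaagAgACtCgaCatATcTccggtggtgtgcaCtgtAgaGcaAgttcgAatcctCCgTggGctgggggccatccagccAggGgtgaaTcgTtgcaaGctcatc
The sequences were identical at 121 of the 150 positions (80.7%) and differed at 29, which lie along the whole window. The longest run of bases that the annotated Dach1 and Dach2 transcripts shared was 20. Among all pairs of the 9 genes the longest shared run was 34 bases, between Six4 and Eya1. Of the stretches of 50 bases in the member transcripts, the share found in a transcript of any other gene was 0.041% for Dach1, 0.108% for Dach2, 0.486% for Six4, 0.053% for Eya4 and 1.027% for Six2, and it was 0 for Six5, Eya1, Eya2 and Eya3. No exon of the 9 genes overlapped an exon of another annotated gene.

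Dach1 (ENSMUSG00000055639, chromosome 14), the introduced gene, was higher in all AD1 OE libraries. It was at 102.2, 91.5, 98.3 and 91.6 CPM in AD1 OE replicates 1 to 4 and at 30.2, 33.0, 33.6 and 33.7 CPM in Control replicates 1 to 4. The groups lay far apart, and within each group the libraries were close together, with a coefficient of variation of 5.51% in AD1 OE and 5.03% in Control. The means were 95.9 ± 5.28 CPM and 32.6 ± 1.64 CPM (SD, n = 4 each), which puts AD1 OE at 294% of Control. The log2 fold change was 1.56 ± 0.05 (SE), with a 95% confidence interval of 1.44 to 1.67 and an adjusted p of 1.77e-08 by the quasi-likelihood test of edgeR, adjusted after Benjamini and Hochberg over all tested genes, a fold of 2.94 (2.72 to 3.18). Of the 17721 genes tested, 1 had a smaller p. Within each sex the difference was as large. The 1 female AD1 OE library, at 98.3 CPM, stood against Control females at 30.2 to 33.6 CPM, and the 3 male AD1 OE libraries, at 91.5 to 102.2 CPM, stood against the Control male at 33.7 CPM. The count of a gene adds reads from the Rosa26 copy to those from the locus on chromosome 14, so these values do not show how the endogenous gene itself differed. The Advillin gene (Avil), which carries Cre, was at 450 to 478 CPM in AD1 OE against 840 to 919 CPM in Control libraries.

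Dach2 (ENSMUSG00000025592, chromosome X), the paralogue that shares the Dachshund domain, was scarce in both groups. It gave 76, 38, 34 and 41 counts in the AD1 OE libraries and 24, 48, 28 and 60 counts in the Control libraries. Scaled by library size, these were 1.72, 1.69, 1.30 and 1.48 CPM in AD1 OE and 1.08, 1.495, 1.10 and 1.69 CPM in Control. The groups overlapped, and Control replicate 4 lay above 3 of the 4 AD1 OE libraries. AD1 OE minus Control on the log2 scale was 0.19 ± 0.19 (SE; 95% confidence interval -0.22 to 0.60, adjusted p = 0.656), so that the fold lay between 0.858 and 1.51 and a fold of the size seen for Dach1 lay outside the interval. By sex, the 4 male libraries were at 1.48 to 1.72 CPM and the 4 female libraries at 1.08 to 1.495 CPM. The male minus female difference was 0.39 on the log2 scale (adjusted p = 0.766), and the genotype difference was 0.00039 once sex was a term of the fit. Thus the 2 Dach genes, whose levels per kilobase of exon stood 33.9 ± 6.71 to 1 in Control, stood 84.7 ± 12.4 to 1 in AD1 OE (SD, n = 4 each). Both ratios used the exon length of the annotated Dach1 gene, although AD1 OE reads include those of the Rosa26 copy.

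**Figure D1:**
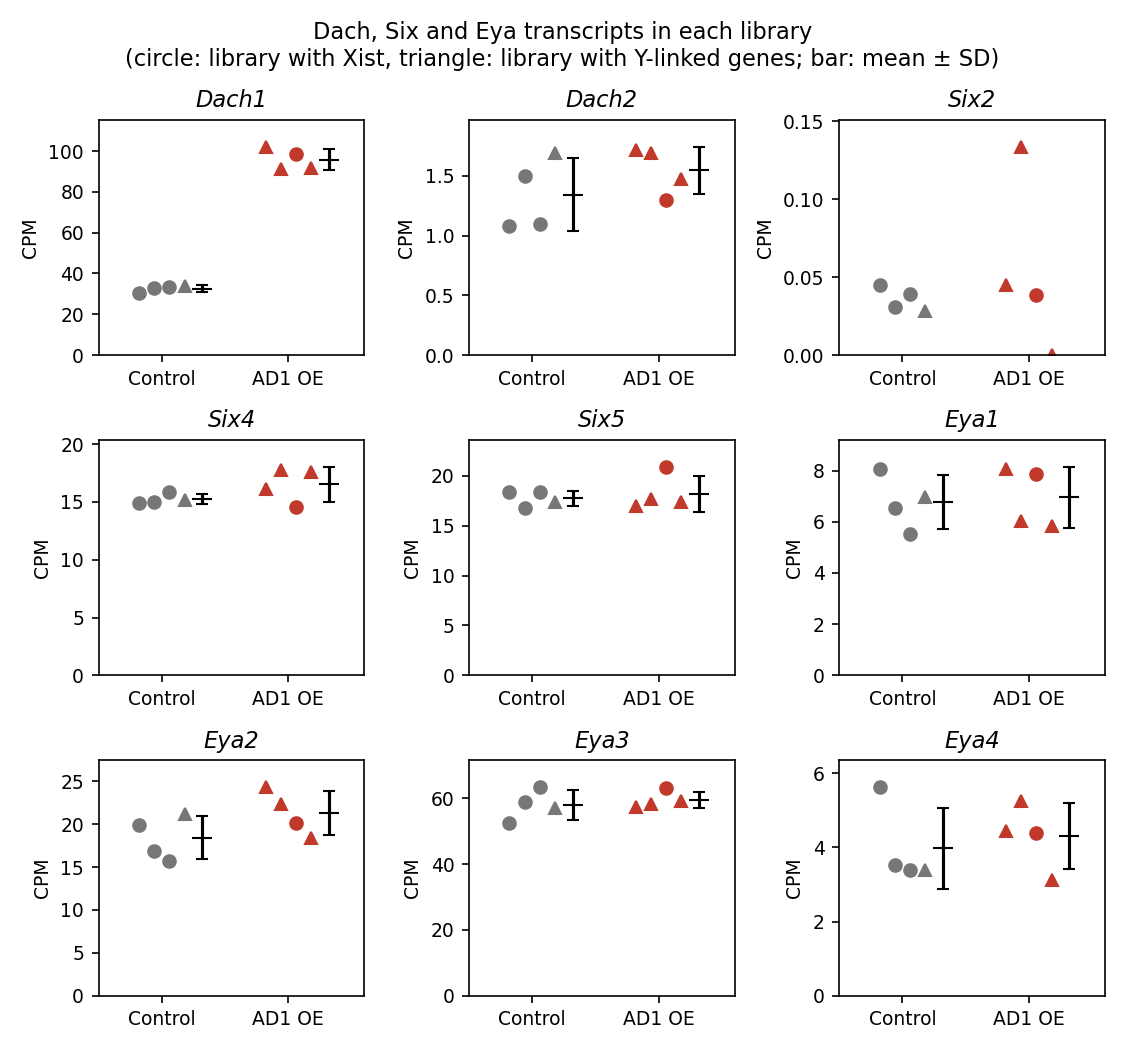
Level of each of the 9 genes in each library, in CPM from 0 on a linear axis that differs between panels, with Control in grey, AD1 OE in red, circles for female and triangles for male libraries, and a bar for the mean ± SD of 4 libraries (none is drawn for Six2). The AD1 OE libraries lie above the Control libraries for Dach1, at 91.5 to 102.2 against 30.2 to 33.7 CPM, and the groups overlap in each of the other panels.

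Of the Six-family genes, Six4 and Six5 were readily detected and neither differed past the threshold. Six2 was near the limit of detection. Six4 (ENSMUSG00000034460, chromosome 12), which binds DNA with Eya partners and is known from muscle and from sensory ganglia, was at 16.1, 17.8, 14.5 and 17.6 CPM in AD1 OE and at 14.9, 15.01, 15.8 and 15.1 CPM in Control. The Control libraries were within a narrow range, with 3 AD1 OE libraries above it and AD1 OE replicate 3, the female library, below it. The means were 16.5 ± 1.51 CPM and 15.2 ± 0.413 CPM (SD, n = 4 each) and the log2 fold change was 0.12 ± 0.07 (SE; 95% confidence interval -0.04 to 0.27, adjusted p = 0.427). With sex as a term it was 0.06, and without AD1 OE replicate 3 it was 0.18 (adjusted p = 0.141).

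Six5 (ENSMUSG00000040841, chromosome 7), a Six-family factor whose gene lies beside the myotonic dystrophy kinase gene, was at 16.9, 17.7, 20.9 and 17.3 CPM in AD1 OE and at 18.4, 16.8, 18.4 and 17.3 CPM in Control. AD1 OE replicate 3, the library in which Six4 was lowest, was here the highest, and the other 3 AD1 OE libraries were inside the range of Control. The log2 fold change was 0.04 ± 0.07 (SE; 95% confidence interval -0.12 to 0.20, adjusted p = 0.840). It was -0.02 without AD1 OE replicate 3. Six2 (ENSMUSG00000024134, chromosome 17), known for keeping nephron progenitors undifferentiated in the kidney, gave 2, 3, 1 and 0 counts in AD1 OE and 1 count in each Control library. No library rose above a floor of 3 counts. Six2 did not pass the expression filter, so it was not tested and no fold is given. Summed per kilobase of exon, the 3 Six-family genes were at 7.60 ± 0.50 CPM in AD1 OE against 7.32 ± 0.282 CPM in Control.

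The Eya genes encode the coactivators that Six-family proteins need to activate transcription, and all 4 were detected. Eya3 (ENSMUSG00000028886, chromosome 4), the most broadly expressed of the family and also a regulator of the response to day length in the pituitary, was the most abundant. It was at 57.4, 58.4, 63.1 and 59.1 CPM in AD1 OE and at 52.5, 58.9, 63.4 and 57.0 CPM in Control. The AD1 OE range lay inside the Control range. Its log2 fold change was 0.04 ± 0.06 (SE), and the 95% confidence interval of the fold, 0.941 to 1.12, was among the narrowest of the members (adjusted p = 0.795).

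Eya2 (ENSMUSG00000017897, chromosome 2), which is known from cranial placodes and muscle, had the largest difference of the members other than Dach1. It was at 24.3, 22.3, 20.2 and 18.4 CPM in AD1 OE and at 19.9, 16.9, 15.7 and 21.2 CPM in Control. The upper 2 AD1 OE libraries were above all Control libraries and the other 2 were inside the Control range. The means were 21.3 ± 2.55 CPM and 18.4 ± 2.53 CPM (SD, n = 4 each) and the log2 fold change was 0.21 ± 0.11 (SE; 95% confidence interval -0.02 to 0.44, unadjusted p = 0.0688, adjusted p = 0.315). It was 0.12 with sex as a term. Male libraries were at 18.4 to 24.3 CPM and female libraries at 15.7 to 20.2 CPM.

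Eya1 (ENSMUSG00000025932, chromosome 1), required for the ear and kidney and mutated in branchio-oto-renal syndrome, was at 8.07, 6.01, 7.88 and 5.83 CPM in AD1 OE and at 8.05, 6.54, 5.50 and 6.95 CPM in Control. Both groups spanned nearly the same range. AD1 OE minus Control on the log2 scale was 0.05 ± 0.14 (SE; 95% confidence interval -0.25 to 0.35, adjusted p = 0.893). Eya4 (ENSMUSG00000010461, chromosome 10), a gene of inherited hearing loss, was at 4.45, 5.26, 4.40 and 3.13 CPM in AD1 OE and at 5.62, 3.52, 3.38 and 3.39 CPM in Control. Control replicate 1 was the highest of the 8 libraries, and the other 3 Control libraries were all under 3.6 CPM. The log2 fold change was 0.13 ± 0.19 (SE; 95% confidence interval -0.29 to 0.54, adjusted p = 0.790), and it was 0.33 (adjusted p = 0.334) without Control replicate 1. That library also had the highest summed level of 6 spinal cord markers, 10.5 CPM against 1.59 to 6.24 CPM in the other Control libraries and 2.15 to 2.98 CPM in AD1 OE, and the part of this in the Eya4 value was not tested. Summed per kilobase of exon, the 4 Eya genes were at 19.1 ± 0.918 CPM in AD1 OE against 17.8 ± 0.494 CPM in Control.

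Read as a set, 1 of the 8 tested members was called, namely Dach1, where a call needed an adjusted p below 0.005 together with a log2 fold change beyond 0.25 in either direction, against 2.57% of all tested genes called in either direction and 0.784% called higher in AD1 OE. With an adjusted p below 0.05 at any fold, the member count was again 1, against 6.55% of all tested genes. The groups did not overlap for 1 of the 8 members, against 13.0% of tested genes. Of the 7 tested members other than Dach1, 0 were called and 0 had an unadjusted p under 0.05 with edgeR, and DESeq2 and limma-voom also called 0 of them. The 7 log2 fold changes were all above 0, with a median of 0.115, where the median over all tested genes was 0.002 and 50.5% of the genes were above 0. Their size was nearer to that of other genes, with a median absolute value of 0.115 against 0.084. Of these values 3, those of Six5, Eya1 and Eya3, fell below 0 when 1 library was left out. For Dach2 and Eya4, the scarcest tested members, the intervals still allowed folds of 1.51 and 1.46, while for Eya3, Six5 and Six4 changes above 1.12-fold, 1.15-fold and 1.21-fold lay outside the intervals.

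The baseline order of the genes in Control ganglia was read from CPM per kilobase of exon, which allows levels to be compared between genes. Eya3 was the highest at 10.3 ± 0.799 CPM per kilobase (SD, n = 4), at the percentile 71.0 of tested genes. Eya2 at 6.22 ± 0.853 and Six5 at 5.90 ± 0.259 CPM per kilobase came next, and their Control libraries overlapped, so their order is not resolved. Dach1 followed at 4.46 ± 0.224 CPM per kilobase, close to the middle of all tested genes at the percentile 49.3. Six4 was at 1.40 ± 0.038, Eya1 at 0.866 ± 0.135, Eya4 at 0.42 ± 0.12 and Dach2 at 0.136 ± 0.0307 CPM per kilobase, each with all 4 Control libraries below those of the gene before it. Six2 stood last at 0.017 CPM per kilobase. Each family thus had 1 or 2 members at middling levels and others that were scarce, and Dach2 lay at the percentile 1.93 of tested genes. With the longest coding sequence as the length, Dach1 came before Eya2 and Six5, so the order among these 3 rests on the length used.

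In AD1 OE, Dach1 moved from rank 4 of the 9 genes to rank 1. It reached 13.1 ± 0.722 CPM per kilobase, at the percentile 77.2 of tested genes, with its lowest library at 12.5 above the highest Eya3 library at 11.2. The order of the other genes was as in Control. Dach1 made up 15.02% ± 0.670 of the per-kilobase sum of the 9 genes in Control and 32.8% ± 0.950 in AD1 OE (SD, n = 4 each). The transcript of the corepressor thus went from below Eya3, Eya2 and Six5 to above them on this scale, which measures RNA and not protein. Its Control place below Eya2 and Six5 holds for the exon length used here. With the longest coding sequence as the length, Dach1 was already above both in Control and below Eya3. For Dach1 the length used in both groups was that of the annotated gene. A transcript of the Rosa26 copy may have another length, which the sources used here do not state. The AD1 OE value per kilobase, rank and share of Dach1 rest on that choice.

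**Figure D2:**
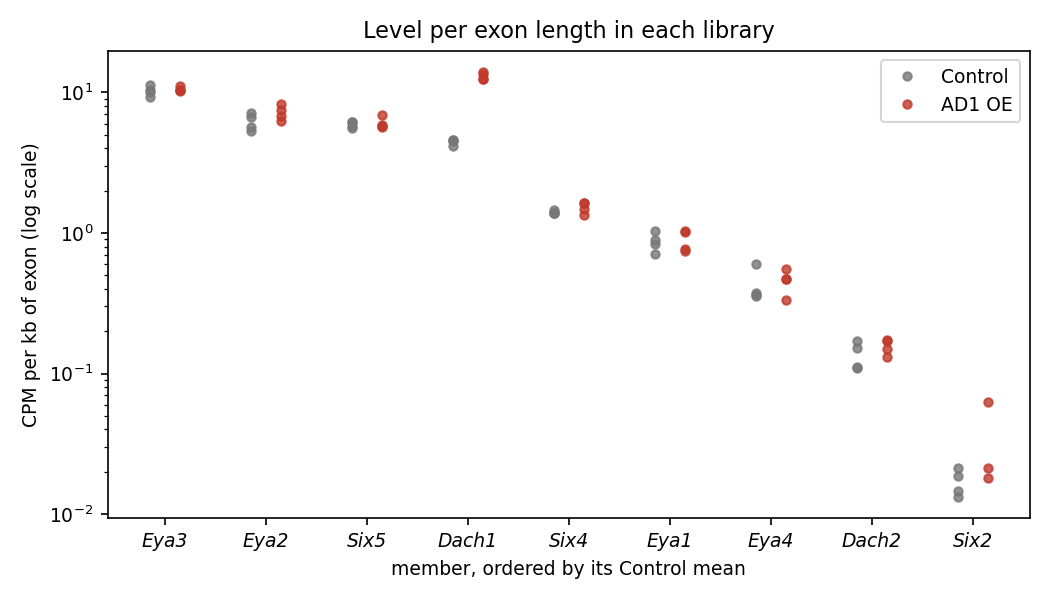
Level of the 9 genes in CPM per kilobase of exon on a log10 axis, 1 point per library, with Control in grey and AD1 OE in red and the genes ordered by their Control mean. Dach1 goes from 4.46 to 13.1 CPM per kilobase and past Eya3, while the 2 groups overlap for each other gene, and the 1 AD1 OE library with 0 counts of Six2 is not drawn. For Dach1 the exon length of the annotated gene was used in both groups.

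Genes that work beside the network were taken from lists of 3 other Six genes, 4 Pax genes, 4 Ski family genes and 13 cofactors, and from genes known to be regulated by Dach, Eya or Six-family factors in other tissues. Of the other Six genes 1 was tested and 0 were called, with 1 at an unadjusted p under 0.05, and of the Pax genes 4 were tested and 0 were called. The Pax genes, which lie upstream in the eye, were all under 1 CPM on average in both groups. Pax6, the master gene of the eye, was at 0.438 ± 0.125 CPM in AD1 OE against 0.739 ± 0.216 CPM in Control, with a log2 fold change of -0.76 that did not pass the threshold (unadjusted p = 0.0200, adjusted p = 0.164). Pax2, Pax3 and Pax8 had log2 fold changes of -0.75, 0.06 and 0.19 and adjusted p-values of 0.286 to 0.920. Summed spinal cord markers were at 2.15 to 2.98 CPM in AD1 OE and 1.59 to 10.5 CPM in Control. Their part in the Pax values was not tested.

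The Ski family shares the Dachshund homology domain with Dach1 and represses transcription with overlapping cofactors. Of its 4 genes 3 were tested and 0 were called, with a median log2 fold change of 0.161. Skil, which encodes the TGF-beta antagonist SnoN, was at 60.6, 57.9, 58.0 and 56.4 CPM in AD1 OE and at 48.7, 48.8, 53.2 and 52.6 CPM in Control. Its groups did not overlap. The difference, 0.20 ± 0.05 on the log2 scale (SE), had an adjusted p of 0.0239 and was under the fold limit, and the adjusted p over the alternatives ran from 0.00331 to 0.0918. Ski was at 155.4 ± 11.3 CPM against 152.3 ± 7.69 CPM and Skor2 at 13.9 ± 1.76 CPM against 12.4 ± 1.53 CPM, and neither passed the threshold.

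Among the 13 cofactors, all of which were tested, 1 was called higher and 0 lower, with a median log2 fold change of -0.015. Over all tested genes 0.784% were called higher. At an unadjusted p under 0.05 there were 4 of the 13, namely Tle3, Ncor1, Sin3a and Ep300, all higher in AD1 OE. The share of all tested genes at that p is not given here. Groups did not overlap for these 4 of the 13, against 13.0% of all tested genes. With an adjusted p under 0.05 there was 1 of the 13, against 6.55% of all tested genes. The called gene was Tle3, a Groucho corepressor of a family that binds Six-family proteins. Tle3 was at 115.9, 107.8, 120.6 and 108.6 CPM in AD1 OE and at 100.25, 92.3, 91.1 and 92.6 CPM in Control, so that each AD1 OE library was above each Control library. AD1 OE minus Control on the log2 scale was 0.27 ± 0.05 (SE; 95% confidence interval 0.17 to 0.37, adjusted p = 0.00341). The call was near the limits and was lost in 7 of 17 alternatives. Over the 17, the log2 fold change ran from 0.25 to 0.31 and the adjusted p went up to 0.0165. The other Groucho genes Tle1, Tle2 and Tle4 had log2 fold changes of -0.01, -0.01 and -0.02. The corepressors that Dach1 is known to recruit were not called either. Ncor1 was at 258 ± 10.4 CPM against 235 ± 8.64 CPM, a log2 fold change of 0.14 (unadjusted p = 0.00705, adjusted p = 0.0863). Sin3a was at 51.8 ± 1.36 CPM against 48.5 ± 1.2 CPM, a log2 fold change of 0.10 (unadjusted p = 0.0387, adjusted p = 0.234). The coactivator Ep300 was at 93.9 ± 1.97 CPM against 88.5 ± 2.62 CPM, a log2 fold change of 0.08 (unadjusted p = 0.0308, adjusted p = 0.209). Hdac3 was at 112 ± 2.73 CPM against 113 ± 3.19 CPM with an adjusted p of 0.813.

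Some genes known from other tissues as regulated by these factors were also examined, without a count over their list. The cell cycle gene Ccnd1, which Dach1 is known to repress in tumour cells, was at 91.2 ± 13.6 CPM in AD1 OE against 92.8 ± 17.1 CPM in Control, with a log2 fold change of -0.02 (adjusted p = 0.945). Jun, Myc and Cxcl12, a chemokine linked to Dach1 in arteries, had log2 fold changes of -0.05, -0.07 and 0.04 and were not called.

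**Figure D3:**
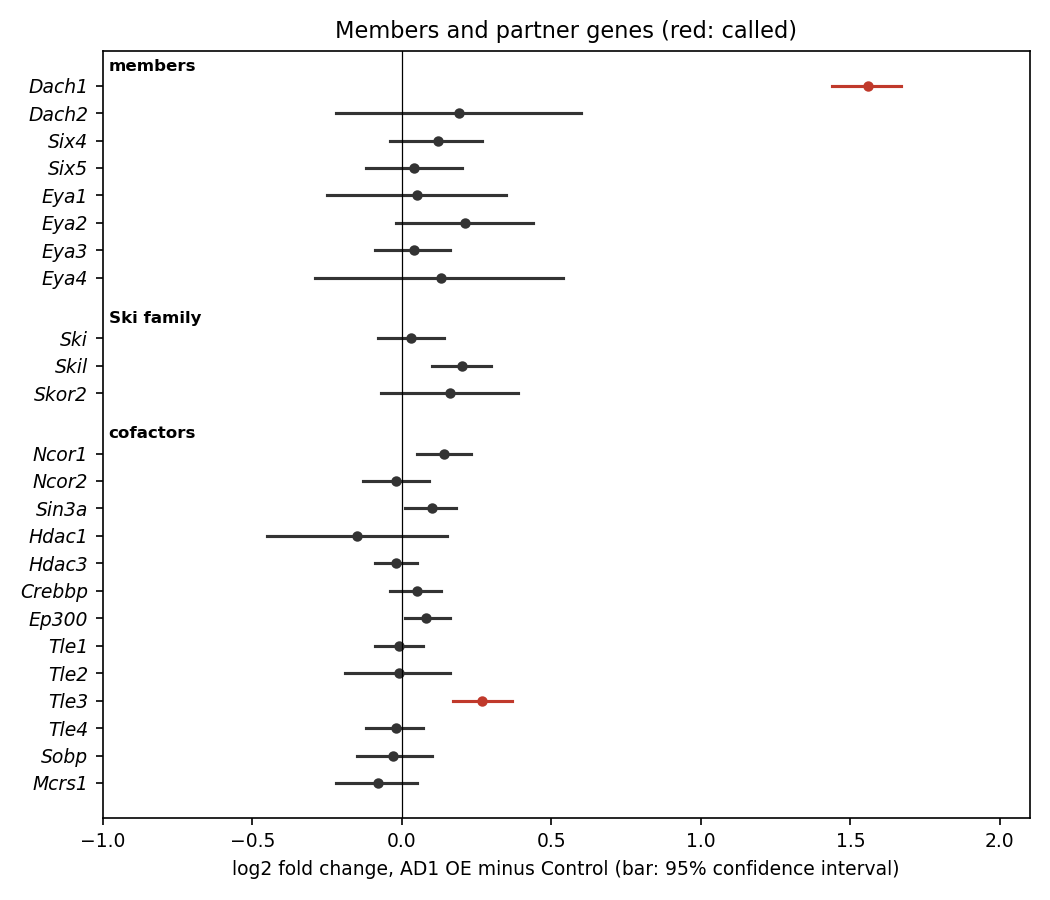
Log2 fold change of AD1 OE against Control with its 95% confidence interval for the 8 tested members and for the tested Ski family genes and cofactors, with called genes in red. Dach1 stands at 1.56, the other 7 members have intervals that include 0, and the called gene outside the members is Tle3 at 0.27.

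The genes whose levels over the 8 libraries were most like those of Dach1 were found by Pearson correlation of log2 CPM. The search covered 13960 genes that averaged 1 CPM or more. Dach1 itself and genes with no symbol, or with a clone-based or placeholder symbol, were left out. The values are a description, since the 8 points are made of the 2 groups and every gene with a large and even difference scores highly. Bnc1, a zinc finger factor best known from keratinocytes and germ cells, came first with r = 0.997. It was at 100.1, 99.1, 96.1 and 89.7 CPM in AD1 OE and at 42.8, 44.1, 45.7 and 46.5 CPM in Control, a log2 fold change of 1.10. Shisal1 (r = 0.993) and Stxbp5, which encodes the syntaxin-binding protein tomosyn (r = 0.991), followed with log2 fold changes of 0.52 and 0.24. At the other end were Layn (r = -0.997), which encodes a hyaluronan receptor, Synpr (r = -0.996), which encodes the synaptic vesicle protein synaptoporin, and Nell1 (r = -0.993), with log2 fold changes of -1.43, -2.10 and -1.55. None of the 6 genes belongs to the Six-class or Eya family. With the group means removed, r was 0.67 for Bnc1, 0.59 for Shisal1, 0.72 for Stxbp5, -0.60 for Layn, -0.43 for Synpr and -0.35 for Nell1. The 6 genes were picked for extreme r over the same 8 libraries, which favours deviations within the groups that follow Dach1. These values are therefore no separate evidence of likeness.

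The Dach1 difference varied little with the processing. Over 17 alternative fits its log2 fold change ran from 1.52 to 1.58, and it was called in each of them. Dach2 ran from 0.00039 to 0.33, Six4 from 0.06 to 0.18, Eya2 from 0.12 to 0.29 and Eya4 from 0.03 to 0.33. Six5, Eya1 and Eya3 each went slightly below 0 in at least 1 fit. Among the 7 members other than Dach1, the smallest adjusted p in any fit was 0.141, for Six4.

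**Figure D4:**
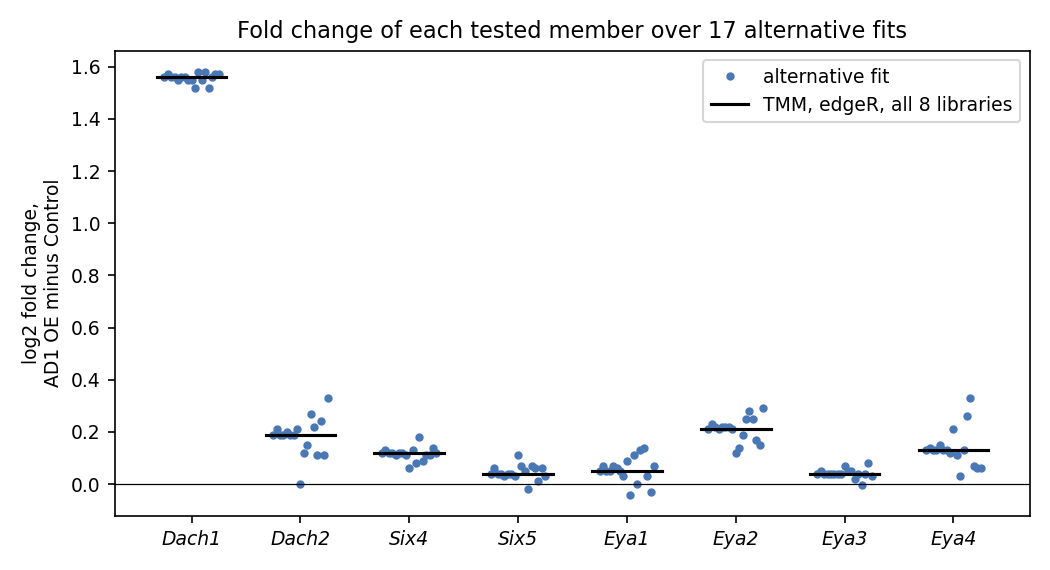
Log2 fold change of AD1 OE against Control for each tested member, with a black line for the edgeR fit on all 8 libraries and a blue point for each of the 17 alternative fits. Dach1 stays between 1.52 and 1.58, and the other members stay between -0.04 and 0.33.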

How the data were processed

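DRG from E18.5 embryos were sequenced from poly(A) libraries made with a stranded kit. The authors aligned reads to GRCm39 with STAR 2.7.8a, after bcl2fastq 2.20.0.422, and assigned them to Ensembl genes with featureCounts 2.0.1. The deposited files hold raw counts, 1 file for each library, with no scaling and no filter. Whether the counting used strand is not given in the sources used here. Symbols, chromosomes, exon lengths and sequences came from GENCODE M21 on GRCm38, and no coordinates are given.

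In R 4.3.3, genes were kept by filterByExpr, scaled by TMM and tested with the edgeR 4.0.16 quasi-likelihood test on genotype (4 against 4 libraries). A call needed an adjusted p (Benjamini-Hochberg) below 0.005 together with a log2 fold change beyond 0.25 in either direction, as in the study. DESeq2 1.42.0, the study's tool, and limma 3.58.1 (voom) were alternatives, with other scalings, filters, terms and single libraries left out. Reads carried no molecular identifiers, so intervals and the floor of 3 counts leave out amplification. The biological coefficient of variation was 8.22%. Sex was read from Xist and Y-linked genes.

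Members and lists were chosen with earlier results of these data known. All members are named, list genes where called or in small counts, other list genes as examples chosen after their values were seen, and the 3 genes most and least correlated with Dach1. Likeness used log2(CPM + 0.5). Single genes of the list of other Six genes, and some results of the list of known regulated genes, are not reported here.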

Additional observations from a re-analysis of the deposited data

Results flagged for a closer look

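Eya4 in Control replicate 1 stood at 5.62 CPM, apart from the other 3 Control libraries, which were at 3.38 to 3.52 CPM. Its gap to the nearest library was 0.938 of the range of the group, above Dixon's 95% critical value for 4 libraries. This was 1 flag among 16 groups examined (8 tested members in 2 genotypes), a rate near what chance alone gives under this rule.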

How the results depend on the processing

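Of 136 alternative values (8 tested members, 17 fits each), 132 kept their direction and their side of the threshold and 4 changed sign, while the count of called members was 1 in each fit and at each threshold. With 1 library left out, the log2 fold change ran from -0.02 to 0.07 for Six5, from -0.04 to 0.14 for Eya1 and from -0.0033 to 0.08 for Eya3. The sign changed without AD1 OE replicate 3 for Six5, without AD1 OE replicate 1 or Control replicate 3 for Eya1, and without Control replicate 1 for Eya3. These were values well inside their intervals. The 455 called genes became 747 without an expression filter, 1161 at an adjusted p under 0.05 with no fold limit, 129 when that p was joined to a log2 fold change beyond 1 in either direction, and 289 to 420 with 1 library left out, the lowest without AD1 OE replicate 1. The cause was not tested. In Control, 2 members took another rank with the longest transcript as the length and 3 with the longest coding sequence. With the replicate block, 348 genes and 1 member were called, and Tle3 (adjusted p = 0.00824) was not. Deviations of same-numbered libraries correlated at -0.02, -0.06, -0.03 and 0.33, so the numbers were not taken to pair libraries. Stxbp5 passed both limits in 1 alternative. Six2 did not pass the expression filter of the main fit, so its value was not taken from any fit. The intervals of Dach2 and Eya4 were the widest of the members, and the cause was not tested.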
